A study of Mus musculus with 2 samples.

Results

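The microRNA cluster in the mouse gene Sfmbt2 was described in kidneys of embryos at embryonic day 16.5. Its members are the rows of the deposited tables whose gene is annotated as a microRNA on chromosome 2, inside Sfmbt2 and on its strand. This rule found 107 members among 1973 gene rows. The study sequenced RNA fragments under 30 nt from 2 libraries, biological replicates 1 and 2 of 1 group, both from healthy B6NCrl embryos of mixed sex with no allele or treatment named in the labels. Replicate 2 pooled kidneys of 41 embryos, and replicate 1 was also a pool. The labels name separate tissue samples with a shared donor record, so the spread between the libraries may be partly technical. With 1 group there is no contrast between conditions, and the tests below set the 2 libraries against each other.

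Sfmbt2 encodes a Polycomb-group protein and is an imprinted gene, expressed from the paternal allele in the early embryo and the placenta. A long intron of the rodent gene carries one of the largest microRNA clusters of the mouse genome, built from tandem copies of the miR-297, miR-466, miR-467 and miR-669 families, and the cluster is known mainly from embryonic stem cells and placenta. A microRNA is cut from a hairpin precursor, and its seed, bases 2 to 8 of the mature strand, pairs with target messenger RNAs. Copies that yield the same mature strand cannot be told apart by sequencing it.

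The sequences of these families are rich in alternating C and A, or G and U. The RefSeq table (GRCm38.p6) matched none of the 107 members by symbol, and held mature strands for 8 of the 10 rows of the same subfamilies that lie elsewhere in the genome. All 8 are shown because they give the sequence pattern of the subfamilies, with the seed in capitals.
mmu-miR-466i-3p: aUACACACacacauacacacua
mmu-miR-466j: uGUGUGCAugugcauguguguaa
mmu-miR-466k: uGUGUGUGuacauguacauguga
mmu-miR-466q: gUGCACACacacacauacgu
mmu-miR-467f: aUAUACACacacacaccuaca
mmu-miR-467g: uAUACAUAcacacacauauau
mmu-miR-467h: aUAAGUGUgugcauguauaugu
mmu-miR-669n: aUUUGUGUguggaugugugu

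In this order, 4 strands of the miR-466 subfamily lie at chr13:17747552-17747573, chr10:60960802-60960824, chr3:85467396-85467418 and chr3:28419988-28420007, all on the plus strand. Those of miR-467f and miR-467g lie on the minus strand, at chr11:69635419-69635439 and chr5:34732872-34732892. Those of miR-467h and miR-669n lie on the plus strand, at chr9:115381898-115381919 and chr3:115979905-115979924. All 8 seeds differ, and none of the 8 whole strands occurs in a hairpin of the Sfmbt2 members. Their seeds were found in 1 to 66 of the members' hairpins. Written as DNA on the gene's strand, the seed of miR-467g occurs in 66 of the 107 hairpins (61.7%) against 3.12% of 2083 microRNA hairpins outside the cluster. The seed of miR-466j occurs in 52 (48.6%) against 2.11%, and that of miR-466q in 30 (28.0%) against 1.34%. The seed of miR-466i-3p occurs in 51 (47.7%) against 5.76%, that of miR-466k in 38 (35.5%) against 7.68%, that of miR-467f in 27 (25.2%) against 4.13% and that of miR-669n in 10 (9.35%) against 2.26%. The seed of miR-467h occurs in 1 member (0.935%) against 0.624% outside. Such a match is a description of hairpin letters and not of a mature strand. Words of 4 letters that alternate C and A or G and T (CACA and ACAC, with GTGT and TGTG as their complements) covered a median of 35.8% of a member's hairpin, against 5.63% outside the cluster. The members' hairpins were also lower in G and C, with a median of 38.3% against 51.7%. All 10 rows of these subfamilies outside Sfmbt2 had 0 sense reads in both libraries, which allows up to 0.564 CPM in replicate 1 and 0.421 CPM in replicate 2. CPM stands for reads on the gene's strand per 1000000 such reads in gene rows. Gene rows leave out reads mapping to several places, so these limits do not cover such reads.

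The libraries held 5317669 and 7128703 sense reads in gene rows. The tissue check used marker lists chosen with earlier results of these data known. All 3 Hox-locus rows, all 5 rows of the epithelial miR-200 family and all 4 nephron-linked rows were detected, where detected means 1 CPM or more in both libraries. Of the pluripotent-cell rows, 5 of 9 were detected with summed levels of 18.8 and 34.8 CPM, and of the neuronal rows 0 of 3. Marker reads mapping to several places are not in these counts, and how many there were was not tested. Blood, liver, muscle and pancreas rows were all detected, between 171 and 867 CPM summed per list and library. The part of any such cells in the levels of the cluster was not tested.

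The members occupy 53.0 kb, from 10465287 to 10518279 on chromosome 2 of mm10, all on the plus strand. All 107 lie in 1 intron of 62472 bases, intron 10 or 11 of Sfmbt2 depending on the transcript, and none overlaps an exon of Sfmbt2. By symbol, 5 members belong to the miR-297 subfamily, 20 to miR-466, 14 to miR-467 and 20 to miR-669, while 48 carry only a Gm symbol, a provisional gene name. Another 12 annotated microRNA genes of the intron have no row in the deposited tables and could not be counted, among them Mir669a-4 to Mir669a-12. Each Gm hairpin was compared with the named members by its 12-nt windows. For 44 of the 48 the nearest named hairpin was a miR-669 member, with a median of 56.1% of windows in common and a lowest value of 8.70%, so that part of this assignment is loose. Gm25022 was identical to 6 Mir467a copies, Gm25943 to Mir466b-4 and Mir466b-6, Gm25285 to Mir466c-2 and Gm26092 to Mir669a-1.

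The cluster took 0.447% of the sense reads in replicate 1 (23790 reads, exact Clopper-Pearson 95% interval 0.442 to 0.453) and 0.428% in replicate 2 (30497 reads, 0.423 to 0.433), a mean of 0.438% ± 0.0138 (SD, n = 2). With reads mapping to several places added to the denominator but none of them to the cluster, the mean share was 0.278%, lower by construction. The intervals cover counting error only. In such whole-tissue libraries, fewer cells that make a microRNA and less of it per cell cannot be told apart. Few members carried the reads. A read was counted for 26 members, for 21 of them in both libraries, and 81 members (75.7%) had none in either, against 64.0% of all gene rows. Detection was reached by 10 of 107 members, 9.35%, against 19.6% of all gene rows. The reads outside these 10 came to 86 of 54287, spread over 16 members with at most 12 reads each.

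**Figure D1:**
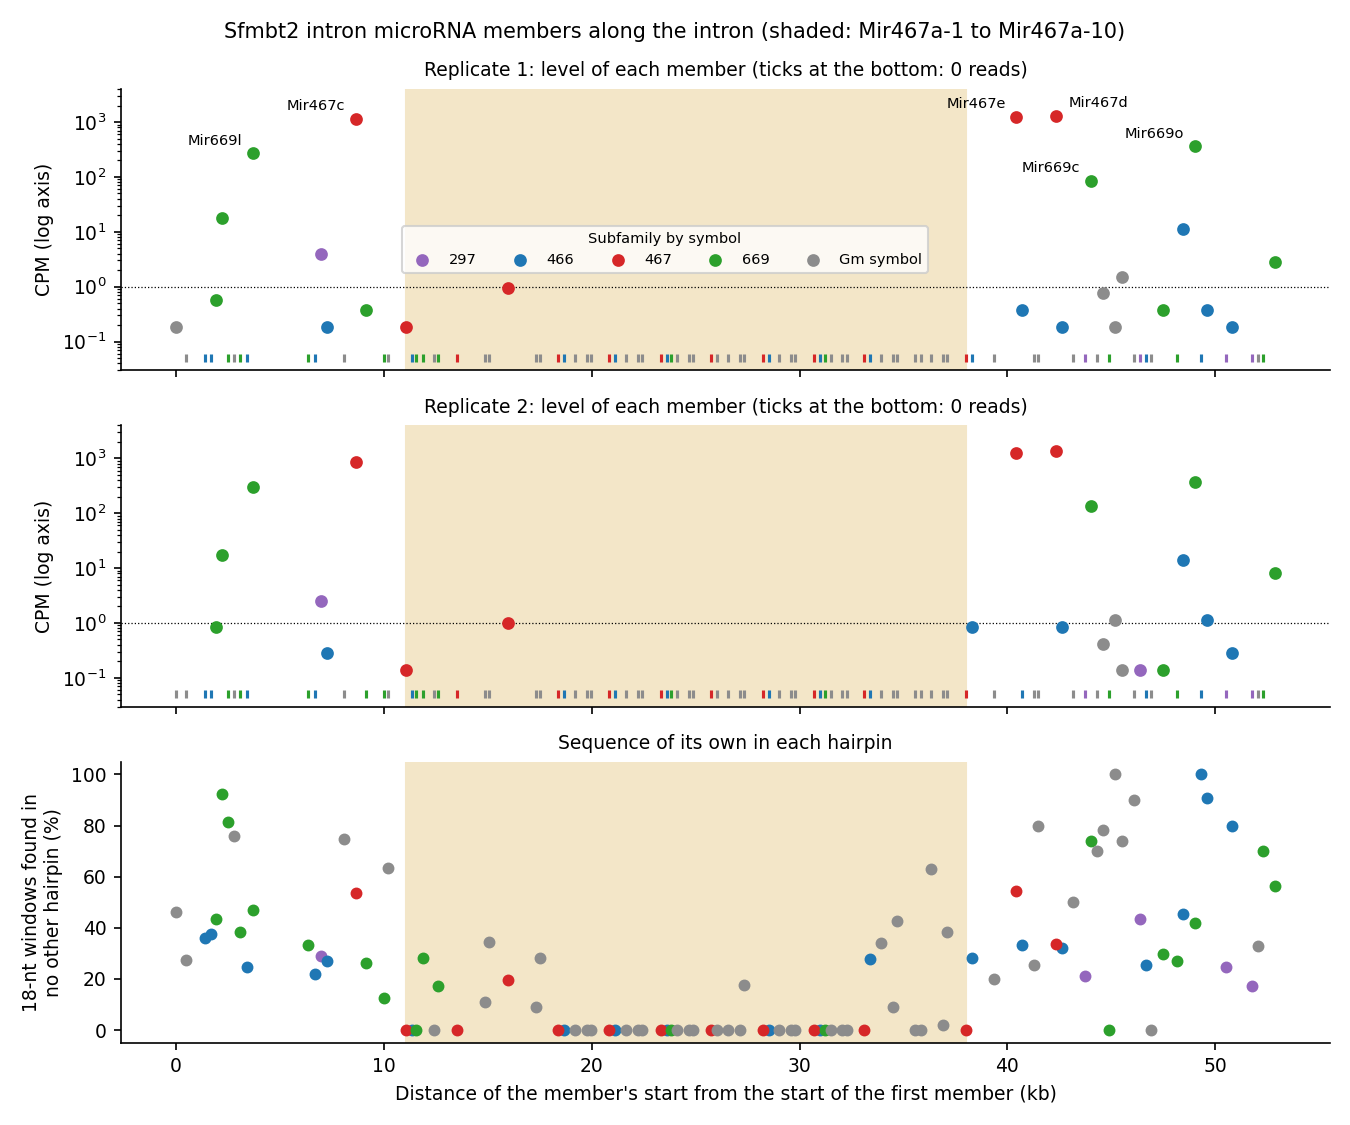
Level of each of the 107 members in replicate 1 (top) and replicate 2 (middle), in CPM on a log axis, and the share of its hairpin's 18-nt windows found once among annotated hairpins (bottom), by distance along the intron in kb and coloured by subfamily. Dotted lines mark 1 CPM, and the shaded stretch from Mir467a-1 to Mir467a-10 holds 55 members and 14 reads of both libraries together.

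The miR-467 subfamily supplied most of the counted reads. Its 14 members held 3711 CPM in replicate 1 and 3423 CPM in replicate 2, or 83.0% and 80.0% of the reads of the cluster (mean 81.5% ± 2.08, n = 2). Reads mapping to several places are not in the shares of any subfamily. No 18-nt stretch was found once among annotated hairpins in 10 of 14 miR-467, 6 of 20 miR-466 and 4 of 20 miR-669 members. The order of the subfamilies therefore holds for counted reads only. All but 14 of the 44140 reads behind the miR-467 sums came from 3 members. Mir467d, at 10507630 to 10507714, had levels of 1304 and 1342 CPM in replicates 1 and 2 (mean 1323 ± 27.4, n = 2), rank 69 of all gene rows. Mir467e, at 10505721 to 10505807, stood at 1261 and 1237 CPM (mean 1249 ± 17.3). Both lie in the 3' part of the cluster, Mir467e starting 40.4 kb and Mir467d 42.3 kb from the start of its first member. They lie within 2 kb of each other, and their ranges over the libraries did not overlap. The third, Mir467c, lies in the 5' part, at 10473931 to 10474027, and stood at 1145 and 843 CPM (mean 994 ± 214). It was the lowest of the trio in both libraries.

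The other 11 members of the miR-467 subfamily were close to or at 0 in these counts, which leave out reads mapping to several places. The 10 Mir467a copies among them had no 18-nt stretch found once among annotated hairpins. Mir467b had 5 and 7 reads, or 0.940 and 0.982 CPM, just under the detection level. Mir467a-1 had 1 read in each library, and the other 9 Mir467a copies had none.

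The miR-669 subfamily came next, with 743 CPM in replicate 1 and 833 CPM in replicate 2, or 16.6% and 19.5% of the reads of the cluster. Of its 20 members 5 were detected. Mir669o, at 10514300 to 10514395, stood at 362 and 369.6 CPM. Mir669l, at 10468971 to 10469068, stood at 273 and 301 CPM. These members sit at opposite ends of the cluster, and Mir669o was the higher of them in each library. Mir669c, at 10509296 to 10509404, stood at 85.9 and 135 CPM, higher in replicate 2. Mir669e (10467495 to 10467613) stood at 18.1 and 17.7 CPM, and Mir669h (10518155 to 10518279), the last member of the cluster, at 2.82 and 8.28 CPM from 15 and 59 reads. Of the remaining 15 members of the subfamily, 12 had no read, among them Mir669b, Mir669d, Mir669g and Mir669i.

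The miR-466 subfamily, the joint largest named subfamily among the members with rows, held 12.6 CPM in replicate 1 and 17.4 CPM in replicate 2. These were 0.282% and 0.407% of the reads of the cluster. Most of this came from Mir466n, at 10513741 to 10513834, with 60 and 100 reads (11.3 and 14.0 CPM). None of the other 19 members was detected. Mir466h had 2 and 8 reads and Mir466, the member without a letter, 1 and 6, while Mir466b-3 had 0 and 6. These counts are too low to order the members, and 13 of the 20 had no read at all. The miR-297 subfamily was represented by Mir297a-2, at 10472254 to 10472343, with 21 and 18 reads (3.95 and 2.53 CPM). Of its other 4 members, Mir297b had 1 read in replicate 2, and the rest had none. The 48 Gm members held 14 and 12 reads together, and none was detected. Gm22239 had 1 and 8 reads, Gm22925 8 and 1, and Gm25263 4 and 3.

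**Figure D2:**
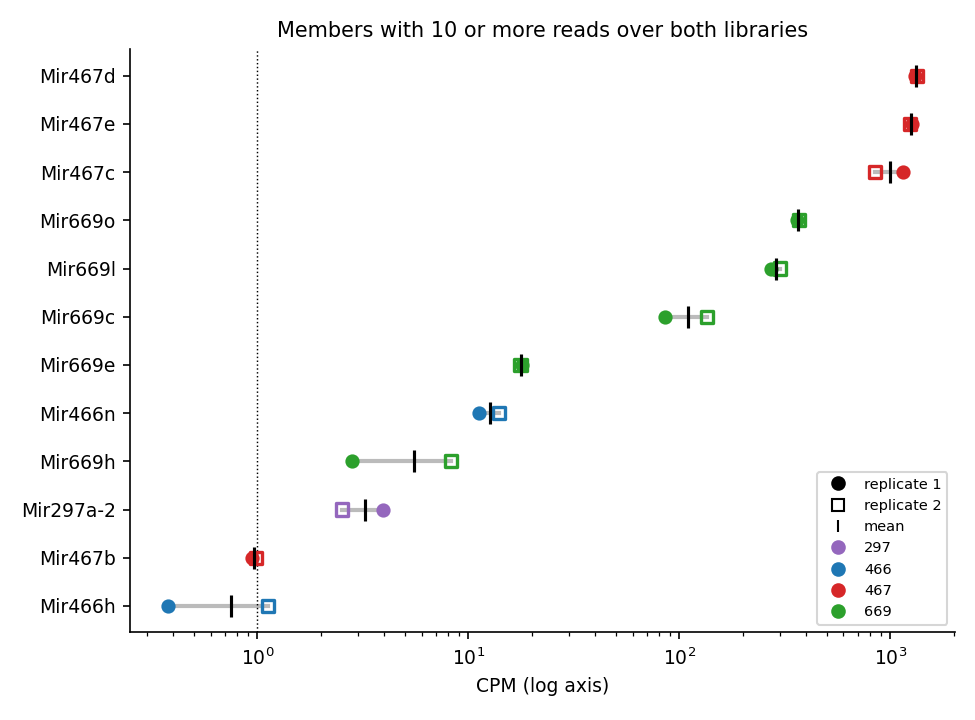
Level in CPM on a log axis of the 12 members with 10 or more reads over both libraries, with replicate 1 as filled circles, replicate 2 as open squares and the mean as a bar. Mir467d, Mir467e and Mir467c lie between 843 and 1342 CPM, and the 10 members above Mir467b pass the dotted line at 1 CPM in both libraries.

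The order of the detected members was read against the replicate spread. Over the 181 gene rows with a mean of at least 100 CPM the pooled SD was 0.22 on the log2(CPM + 1) scale, and the normal 95% limit of that SD, a 1.34-fold difference, was used as the limit of the spread. The spread of rows under 100 CPM was not part of this limit. CPM was not divided by length, since a microRNA read covers a mature strand. Mir467d and Mir467e were 1.06-fold apart and Mir467e and Mir467c 1.27-fold, both within the spread. Mir467d stood 1.346-fold above Mir467c, practically at the limit of 1.344. Mir467c had 0.879 reads per read of Mir467d in replicate 1 and 0.628 in replicate 2, so this distance came mainly from replicate 2. All 3 kept this order in both libraries. Mir467c stood 2.68-fold above Mir669o, beyond the spread. Mir669o and Mir669l, 1.27-fold apart, lay within it, while Mir669l stood 2.65-fold above Mir669c and Mir669c 5.76-fold above Mir669e. Below these, Mir669e stood 1.39-fold above Mir466n and Mir466n 2.28-fold above Mir669h. The pair at the bottom changed places, since Mir297a-2 was above Mir669h in replicate 1 and below it in replicate 2. All folds of this paragraph are on the log2(CPM + 1) scale. The 3 highest members held 82.9% and 80.0% of the reads of the cluster, and the 5 highest 97.1% and 95.7%.

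The reads of the cluster were all on the strand of Sfmbt2. None of the 107 members had a read on the opposite strand in either library, which allows at most 0.0126% of the cluster's reads in replicate 1 and 0.00984% in replicate 2. Over all gene rows the opposite strand took 2.14% and 2.24%. The microRNA rows between Dlk1 and Dio3 had 1 opposite read beside 90786 sense reads in replicate 1. In replicate 2 they had 16 beside 135742, so few opposite reads were not particular to this cluster.

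The hairpins were then compared for shared sequence, because the tables set reads with more than 1 mapping place apart, in a row that names no gene. These numbered 3323410 in replicate 1 and 3718198 in replicate 2, or 28.0% and 25.3% of all reads. How many of them came from this cluster was not tested. A window of 18 nt was called a hairpin's own when it occurred once among all annotated microRNA hairpins, both strands counted. Of the 107 members, 105 had at least 1 window that was not their own, and 59 shared a window with a hairpin outside the cluster. In 42 members no window was their own. Among these 42, 38 were identical over the whole hairpin to another member, in 15 groups. The largest group holds 7 hairpins, namely Mir467a-2, Mir467a-4, Mir467a-5, Mir467a-7, Mir467a-8, Mir467a-9 and Gm25022. Mir467a-3, Mir467a-6 and Mir467a-10 form another group of 3.

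Members without a window of their own had next to no counted reads. A read of 18 nt or more that lies within such a hairpin also matches another place. Reads mapping to several places are not in these counts, so the low values were set by the counting. They do not tell whether these members are expressed. The 38 with an identical partner had 0 reads in both libraries, and of the other 4 only Mir467a-1 had any, 1 in each library. All 10 detected members fell among the 63 with some windows of their own, and those windows made up 28.8% to 92.2% of their hairpins (median 50.3%), against 0% to 100% (median 17.3%) in the 97 that were not detected. Among the detected members the order of levels was not the order of this share. Mir467d, the highest, had 33.8% of its own, Mir467e 54.3%, Mir467c 53.8%, and Mir669e, at 17.9 ± 0.267 CPM, had 92.2%. Members with much sequence of their own were also found without reads. Both members whose windows were all their own were undetected, Mir466g with 0 reads and Gm22239 with 1 and 8. Of the 21 members with at least 50% of own windows, 5 were detected and 11 had no read. In the cluster, 0 of 42 members without own windows, 10 of 63 with some and 0 of 2 with all were detected. Outside it, the share detected rose over these classes. The same counting applies to those rows, so a low share without own windows was built in. There, 2 of 223 rows without a window of their own were detected (0.897%), 89 of 651 with some (13.7%) and 286 of 913 with all (31.3%). Windows were compared between annotated hairpins only, so copies elsewhere in the genome are not counted.

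**Figure D3:**
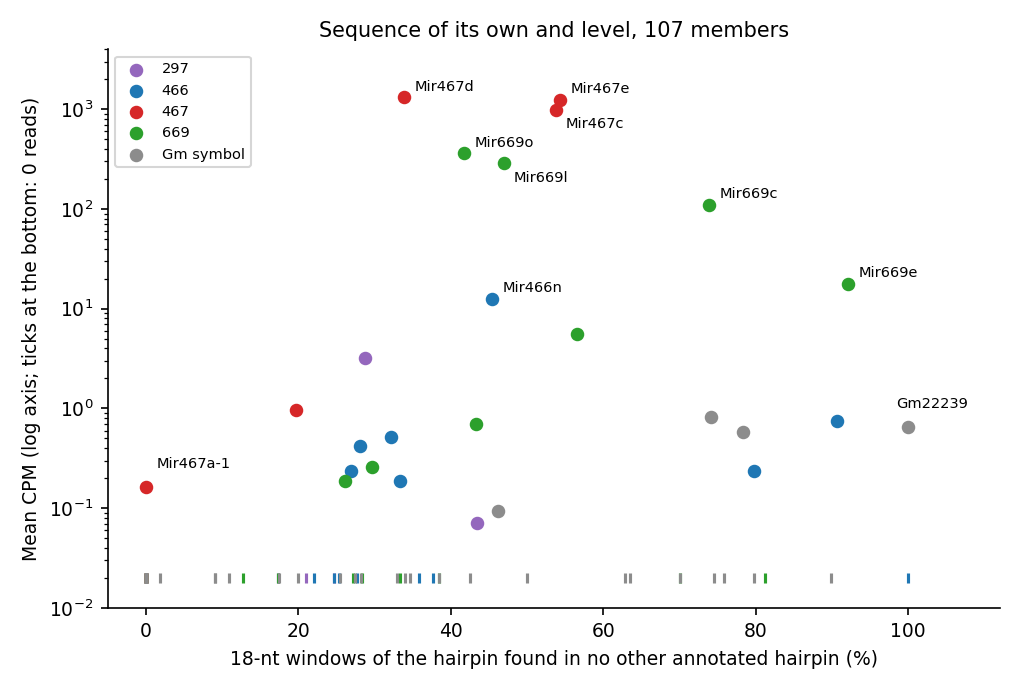
Mean CPM of both libraries on a log axis against the percentage of a hairpin's 18-nt windows found once among annotated hairpins, for the 107 members coloured by subfamily. The 10 detected members lie between 28.8% and 92.2%, while ticks at the bottom mark the 81 members with 0 reads.

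The Mir467a copies lie in the middle of the cluster. The stretch from Mir467a-1 to Mir467a-10, chosen after the values were seen, spans 27.0 kb from 10476346 to 10503355 and holds 55 members. The starts of the 10 Mir467a copies in it are a median of 2462 bases apart, from 2413 to 4880 bases. Gaps of 4880 bases lie between Mir467a-2 and Mir467a-3, where Mir467b sits, and between Mir467a-9 and Mir467a-10. The latter gap holds Gm25022, which is identical to 6 Mir467a copies. In this stretch 40 of 55 members had no window of their own and 37 had an identical partner. Together its members had 6 reads in replicate 1 and 8 in replicate 2, from Mir467a-1 and Mir467b. Reads that map to several of these copies are not in the counts. The 20 members before it held 32.2% and 27.3% of the reads of the cluster, with 4 detected, and the 32 after it held 67.8% and 72.7%, with 6 detected. In the 2 outer stretches the median share of own windows was 38.1% and 42.6%, against 0% in the middle one.

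Other hairpin features overlapped between detected and undetected members. Hairpins were 85 to 125 nt long in the former and 73 to 127 nt in the latter, and G and C made up medians of 39.7% and 38.1%. The predicted folding energy per nucleotide had a median of -0.40 kcal/mol in detected members, from -0.57 to -0.26, and of -0.36 kcal/mol in the others, from -0.54 to -0.21. The alternating words covered medians of 38.6% and 34.7%. By subfamily these words covered most in miR-466, with a median of 48.7%, then 41.6% in miR-467, 37.8% in miR-297 and 36.6% in miR-669, and least in the Gm members with 25.0%.

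The libraries were last compared member by member, as a measure of how far 2 pools of the same tissue differed. Of the 107 members 12 had the 10 reads over both libraries needed for a test. In the exact binomial test with Benjamini-Hochberg adjustment over 455 gene rows, which takes in counting error only, 6 of these 12 differed, against 33.6% of all rows tested. The libraries therefore differed by more than counting error in many rows, and were not treated as 1 library given in duplicate. Higher in replicate 2 were 2 members (15.8% of all rows tested) and lower were 4 (17.8%). The members tested were those with enough reads, so these counts do not speak for the 95 others. In an edgeR exact test with an assumed biological coefficient of variation (BCV) of 0.2, 0 of the 12 members and 3 of the 455 rows passed, with 1 member at an unadjusted p under 0.05. The median log2 ratio, replicate 2 over replicate 1 with TMM scaling, was -0.09 over the 12 members and 0.02 over all rows tested.

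The adjusted p-values of this paragraph take in counting error only. With an assumed BCV of 0.2 no member passed, so a shift beyond the spread between pools was not shown for any of them. Mir467c differed between the libraries by more than counting error. Its log2 ratio was -0.59 with a counting error of 0.03 (exact binomial test, adjusted p = 3.66e-108). Within a library, where no scaling enters, it had 0.879 reads per read of Mir467d in replicate 1 and 0.628 in replicate 2. Mir467e had 0.967 and 0.921 reads per read of Mir467d, so the ratio of Mir467e to Mir467d differed less between the libraries than that of Mir467c. Mir669c went the other way, with a log2 ratio of 0.51 ± 0.08 (counting error, adjusted p = 2.19e-09) and 0.237 and 0.365 reads per read of Mir669o. Mir669h had the largest ratio of the members that passed, 1.41 ± 0.42 (counting error, adjusted p = 0.00138), from 15 and 59 reads. Marker lists were set side by side for replicates 1 and 2 in CPM, without TMM scaling and without a test. Summed levels were 18.8 and 34.8 CPM for pluripotent cells, 639.9 and 820 CPM for blood and 210.1 and 171 CPM for liver. For pancreas they were 867 and 537 CPM, and for skeletal muscle 267 and 287 CPM. The kidney-linked lists also varied, with 253806 and 227306 CPM for the Hox-locus rows and 14576 and 17570 CPM for the nephron-linked rows. The epithelial rows stood at 26285 and 26770 CPM. The part of any of these cells in the ratios of the members was not tested.

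Small shifts of 3 other members hung on the scaling. Mir467d stood at -0.10 ± 0.02 (adjusted p = 4.71e-05), Mir467e at -0.17 ± 0.02 (adjusted p = 2.02e-12) and Mir669o at -0.11 ± 0.04 (adjusted p = 0.0281), each with its counting error and from the exact binomial test. Scaling by library totals moves the median of all rows by 0.14, and with it Mir467d stood at 0.042, Mir467e at -0.028 and Mir669o at 0.029, none of which passed, while Mir669l passed at 0.14 (adjusted p = 0.00965). Then 4 members passed, 3 higher and 1 lower in replicate 2. Over all rows 78.8% of the passing rows were higher with totals, against 47.1% with TMM. Mir467c, Mir669c and Mir669h kept their direction and passed under both scalings. The other 6 members tested did not pass with TMM, among them Mir669e at -0.17 ± 0.20, Mir466n at 0.17 ± 0.24 and Mir297a-2 at -0.79 ± 0.46.

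**Figure D4:**
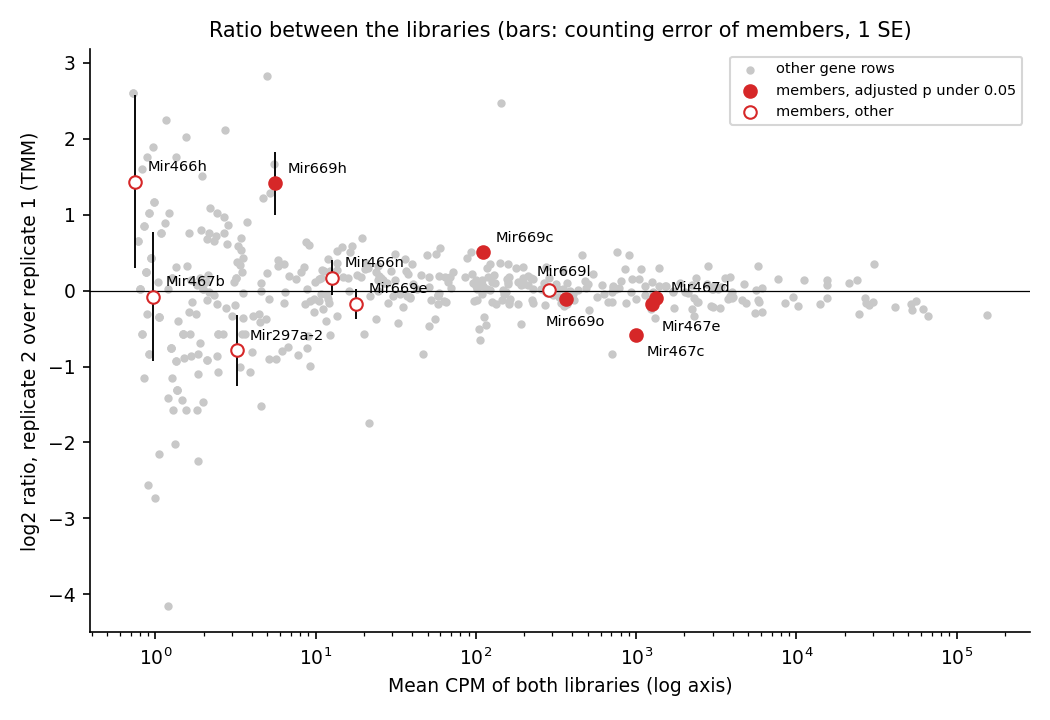
Log2 ratio of replicate 2 over replicate 1 with TMM scaling against mean CPM on a log axis, for gene rows with 10 or more reads over both libraries and at least 1 in each, members in red with their counting error of 1 SE. Mir467c lies at -0.59, Mir669c at 0.51 and Mir669h at 1.41, and filled points mark the 6 members that passed the exact binomial test.

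A second imprinted microRNA locus served as a comparison. Of the 53 rows between Dlk1 and Dio3 on the plus strand, 42 (79.2%) were detected, against 10 of 107 here, and 7 had no read. Their summed level was 17072 CPM in replicate 1 and 19042 CPM in replicate 2, against 4474 and 4278 CPM for the Sfmbt2 members. The median of the detected rows was 109.9 CPM there and 199 CPM here, while over all rows, detected or not, the median was 45.6 CPM there and 0 CPM here. No test was made of these differences, since rows of a cluster are not replicates. Reads mapping to several places are left out at both loci. Of the 107 members here, 42 had no window of their own, and shared windows were not counted separately for the other locus. The part of shared sequence in these differences was not tested.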

How the data were processed

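The authors deposited raw counts of reads per microRNA gene on mm10 with annotation M4, per the file headers of the accompanying text. The sources used here name no aligner, counter or trimming. In each gene row the first count column is the sum of the other 2, taken as the gene's strand and the opposite strand, and the gene's strand was used. Rows that name no gene held 54.2% and 50.4% of all reads in the either-strand column and were left out of library sizes and tests.

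Identifiers without version were matched to GENCODE M21 on GRCm38, which is mm10. Library ratios used TMM factors (edgeR 4.0.16) of 0.952 and 1.05 and a two-sided exact binomial test. Its p-values were adjusted by Benjamini-Hochberg across 455 rows of at least 10 reads. With a single library on each side, a quasi-likelihood fit has no error term and was not used. Planned counts of genome copies were replaced by a search of annotated hairpins. Hairpin sequences came from GENCODE M21 transcripts and were folded with RNAfold 2.7.2. Alternatives used DESeq2 1.42.0 size factors, library totals, other filters and an edgeR exact test with a fixed BCV. By the rule for named genes any member could be named with its values. That rule allowed 5 rows of the subfamilies outside the cluster, but all were at 0 reads, so every mature strand in the table was printed. Members and lists were chosen with earlier results of these data known.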

Additional observations from a re-analysis of the deposited data

How the results depend on the processing

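The share of the cluster ran from 0.428% to 0.447% when either replicate was left out, and was 0.278% with reads mapping to several places added to the denominator, as its construction implies. With 0.5, 5 or 10 CPM as the detection level, 12, 8 and 8 members were detected, and 11 or 12 with 1 library left out. In the edgeR exact test with a BCV of 0.2, 0 of the 12 members passed, 1 at an unadjusted p under 0.05, against 6 in the binomial test and 4 to 7 under its other settings. A larger assumed spread is built into that setting. The log2 ratio of the cluster sum, replicate 2 over replicate 1, was -0.21 with TMM, -0.065 with library totals and -0.25 without Mir467d. Signs turned with library totals for Mir467d (0.042), Mir669o (0.029) and Mir467b (0.063), and with DESeq2 size factors for Mir669l (-0.012). The count of 42 members without own windows was the same with windows of 20 and 22 nt, a check added after the data were seen. Matches of mature sequences to the genome were not run, and hairpins replaced them. Members with few reads are limited by depth: 3 reads equal 0.564 and 0.421 CPM.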
